A study of Mus musculus with 12 samples.

Results

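The genes described here encode 6 host proteins that edit, degrade or restrict nucleic acids, namely Apobec1, Apobec3, Adar, Samhd1, Trex1 and Zc3hav1. They were taken by gene symbol from the 41325 genes of the deposited tables, and all 6 were found. Their RNA was sequenced in IMG, a mouse microglial line that has been immortalised, of wild type genotype and C57Bl6/J strain, with all cells of the same passage. The cells had been exposed for 8 h to oAb, to fAb or to a scramble control, where oAb and fAb are preparations of amyloid beta, whose deposits in the brain mark Alzheimer's disease. Each group held 4 libraries, 12 in all. The design text joins the word fibrillar to oAb and oligomeric to fAb, against the reading the abbreviations give, so the groups keep their label names. Separate cultures are not stated for the replicates of a group, so the p-values here refer to the spread between these libraries, and that spread may be technical.

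Cells tell foreign or misplaced nucleic acids from their own by changing or destroying the ones that should not be there, and interferons raise many of the proteins that do so. Apobec1 deaminates cytidine to uridine in messenger RNA and is best known for editing the apolipoprotein B transcript, while Apobec3 is a deaminase that restricts retroviruses in the mouse. Adar deaminates adenosine to inosine in double-stranded RNA, which keeps the cell's own RNA from being sensed as viral. Samhd1 cleaves deoxynucleoside triphosphates and so limits the building blocks of reverse transcription in myeloid cells, and Trex1 is an exonuclease that degrades DNA in the cytosol. Zc3hav1, also called ZAP, binds viral RNA rich in CpG and brings it to the decay machinery. In humans, inherited defects of TREX1, SAMHD1 and ADAR cause Aicardi-Goutières syndrome, an inflammatory disease of the brain with high interferon.

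The libraries held 14566206 to 17206861 counts in oAb, 16263863 to 18124419 in fAb and 13638721 to 16302252 in scramble. Of 12 markers of microglia and macrophages, 10 had a mean of at least 1 TPM (transcript abundance, which is the count scaled by gene length and then by the library's sum) in oAb and in fAb, and 11 in scramble. Tmem119, a marker of resting microglia, was under 1 TPM in every group, and P2ry12, another one, was under 1 TPM in oAb and fAb. The summed TPM of these markers was 3695 to 4247 in oAb, 3876 to 4136 in fAb and 5092 to 5545 in scramble. Markers of astrocytes, endothelial cells and lymphocytes summed to at most 0.509 TPM in any library. The 5 neuron markers summed to 1.90 to 2.31 TPM in oAb, 1.85 to 2.28 in fAb and 0.139 to 0.716 in scramble, with Rbfox3, Snap25 and Syt1 at 0 in every library, and the 5 fibroblast markers to 1.24 to 1.88, 1.03 to 1.60 and 0.0965 to 0.410 TPM in the same order. The 5 oligodendrocyte markers summed to 14.0 to 15.3 TPM in oAb, 15.7 to 16.7 in fAb and 26.4 to 48.2 in scramble, almost wholly Mbp, whereas Mag, Mog and Cldn11 were under 1 TPM. Mitochondrial transcripts took 2.73% to 3.37% of the counts in oAb, 2.73% to 2.94% in fAb and 4.18% to 4.94% in scramble. Scramble library 3 was unlike the other 3 controls: its Pearson correlations with them over genes were 0.926 to 0.956, and it had 10.6% of its counts at ribosomal protein genes, against 6.39% to 6.75% in the others. The libraries also fall into 2 sets by the share of counts at Timm23 in the pair formed by Timm23 and its near copy Gm10273. Scramble libraries 2, 3 and 4 and oAb libraries 1 and 2 are above 50% (the Timm23 set). In contrast, scramble library 1, oAb libraries 3 and 4 and every fAb library are below 50% and form the Gm10273 set. No label gives a batch.

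Promoter windows of 3 members are printed here, those of Apobec3 and Adar, which rose and hold letters known from interferon-responsive promoters, and that of Apobec1, which fell and lacks them. RefSeq gives 10 windows of 250 bases before to 50 bases after a start site for the 6 members, on build GRCm38.p6. They were searched on both strands for GAAANNGAA, core letters of the interferon-stimulated response element, and for TTCNNNGAA, the letters of a STAT site. Their matches can overlap each other. In the 3 windows printed, given 5′ to 3′ on the strand of the gene, capitals mark GAAANNGAA or its reverse complement.
Apobec3, chr15:79892158-79892457, plus strand: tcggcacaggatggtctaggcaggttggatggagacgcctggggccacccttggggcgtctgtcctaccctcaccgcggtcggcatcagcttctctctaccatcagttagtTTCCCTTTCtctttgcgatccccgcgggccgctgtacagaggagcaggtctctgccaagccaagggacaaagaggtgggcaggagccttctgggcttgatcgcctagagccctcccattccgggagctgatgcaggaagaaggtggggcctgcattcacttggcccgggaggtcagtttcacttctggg
Adar, chr3:89730468-89730767, plus strand: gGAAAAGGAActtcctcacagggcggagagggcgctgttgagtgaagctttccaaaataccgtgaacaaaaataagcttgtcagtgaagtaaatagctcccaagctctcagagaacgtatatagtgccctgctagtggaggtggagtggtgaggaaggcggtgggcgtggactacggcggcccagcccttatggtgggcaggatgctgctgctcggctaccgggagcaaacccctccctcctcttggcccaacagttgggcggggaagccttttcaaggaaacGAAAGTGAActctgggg
Apobec1, chr6:122602395-122602694, minus strand: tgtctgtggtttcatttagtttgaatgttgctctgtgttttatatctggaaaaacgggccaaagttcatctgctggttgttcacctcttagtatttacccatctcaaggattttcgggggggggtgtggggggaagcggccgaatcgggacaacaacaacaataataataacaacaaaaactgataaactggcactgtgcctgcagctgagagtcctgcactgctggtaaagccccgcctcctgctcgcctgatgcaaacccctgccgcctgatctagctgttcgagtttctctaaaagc

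The Apobec3 window holds GAAANNGAA on the minus strand, at position -139 relative to the start site. The Adar window, whose start site lies 15696 bases downstream of the annotated start of the gene, holds GAAANNGAA on the plus strand at -249 and again at +33. No match to GAAANNGAA was found in the other Apobec3 window, in the other Adar windows, or in the windows of Apobec1, Samhd1, Trex1 and Zc3hav1. These letters thus do not divide the members by direction, since 3 of the 5 that rose lack them as Apobec1 does. TTCNNNGAA, which reads the same on both strands, was found at 1 place in the printed Adar window and at 1 place in the Samhd1 window. Of all 32851 mouse windows, 8.56% hold GAAANNGAA and 8.3% hold TTCNNNGAA. By gene, 2 of the 6 members have a window with GAAANNGAA, beside 9.76% of 27025 genes. A match is a description of letters and not of binding.

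Expression of 5 of the 6 members was higher and that of Apobec1 was lower than in scramble, after oAb and after fAb alike. All 6 passed edgeR's quasi-likelihood test at an adjusted p under 0.05 in both comparisons, 5 higher and 1 lower. Among all genes tested, 52.2% passed in oAb against scramble, 25.2% higher and 27% lower, and 56.3% passed in fAb against scramble, 27.6% higher and 28.8% lower. The median log2 fold change of the 6 members was 1.89 in oAb and 1.83 in fAb, beside -0.07 and -0.04 for all genes tested. In all 6 members the TPM of the treated libraries did not overlap that of the controls, and such separation was seen in 18.6% of all genes for higher and 31.3% for lower in oAb, and in 21.1% and 31.6% in fAb. The comparisons share their 4 control libraries, so they are not independent of each other. In RNA from whole cultures, a change in the number of cells that express a gene cannot be told apart from a change in RNA per cell.

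**Figure D1:**
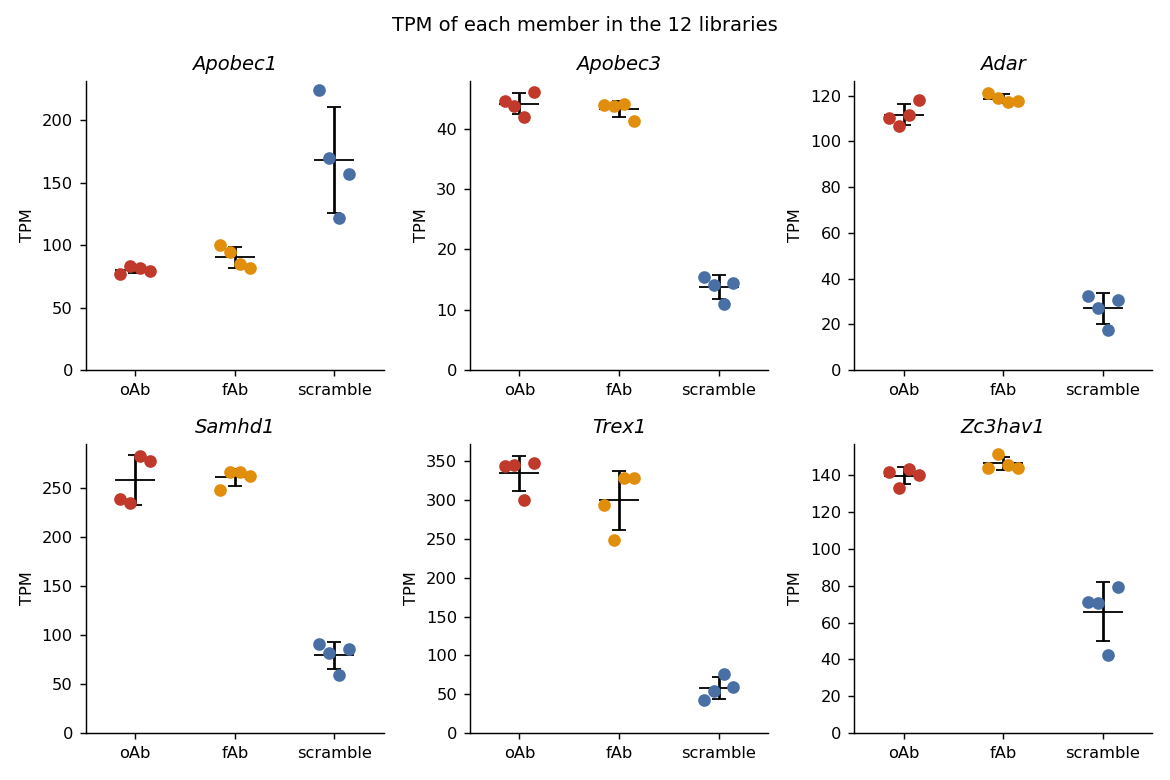
Level of each member in TPM (vertical axis, from 0) in the 4 libraries of oAb, fAb and scramble (coloured points), with the mean and SD as black bars. Apobec1 is lower in every oAb and fAb library than in every scramble library, and the other 5 members are higher.

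Apobec1 (ENSMUSG00000040613, mm10 chromosome 6, 122577792 to 122602444, minus strand, protein coding) was the member that fell. It had 76.8, 83.5, 81.7 and 79.0 TPM in oAb libraries 1 to 4, 99.8, 94.1, 84.6 and 82.0 TPM in fAb libraries 1 to 4, and 224, 169.6, 122 and 157 TPM in scramble libraries 1 to 4. The treated libraries lay close together, while the controls spread widely with the highest in library 1 and the lowest in library 3, and even that lowest control was above every treated library. The mean was 80.3 ± 2.95 TPM in oAb, 90.2 ± 8.27 in fAb and 168 ± 42.3 in scramble (SD, n = 4 each). The log2 fold change was -0.86 ± 0.11 in oAb (SE, edgeR adjusted p = 0.000163) and -0.74 ± 0.11 in fAb (adjusted p = 0.000328), so expression was 1.82-fold and 1.67-fold lower. None of the 50-base words of Apobec1 occurs in the annotated transcripts of another gene. That search took exact words on the transcript strand, so shorter or mismatched likeness to a paralog was not tested.

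Apobec3 (ENSMUSG00000009585, chromosome 15, 79891659 to 79915906, plus strand) moved the other way from its family member. Its level was 44.5, 43.8, 41.9 and 46.1 TPM in oAb, 43.9, 43.7, 44.1 and 41.3 TPM in fAb, and 15.5, 14.1, 11.0 and 14.5 TPM in scramble, in library order. The treated libraries spanned less than 5 TPM and none came near the controls. Means were 44.1 ± 1.75 TPM in oAb, 43.2 ± 1.297 in fAb and 13.8 ± 1.95 in scramble (SD, n = 4 each). The log2 fold change was 1.87 ± 0.08 in oAb (edgeR adjusted p = 8.05e-08) and 1.79 ± 0.08 in fAb (adjusted p = 8.22e-08). In the main fits it had the smallest adjusted p among the members in both comparisons, though not in every other fit. The 2 deaminases thus changed places in count, which is not scaled by gene length. A library held 0.490 to 0.558 Apobec1 counts per Apobec3 count in oAb, 0.549 to 0.650 in fAb and 3.09 to 4.13 in scramble. In the deposited TPM, Apobec1 stayed above Apobec3 in all 4 libraries of oAb and of fAb. Their order depends on the length used, as given below. Of the exon bases of Apobec3, 7.15% also belong to D730005E14Rik on the same strand and 1.06% to Cbx7 on the other strand, and counts in those stretches are uncertain.

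Adar (ENSMUSG00000027951, chromosome 3, 89715022 to 89753446, plus strand), the adenosine deaminase, was measured as a whole gene. The interferon-inducible p150 form and the constitutive p110 form known for this gene are not separated by the counts. Its level was 110.4, 107, 112 and 118 TPM in oAb, 121, 119, 117 and 118 TPM in fAb, and 32.4, 27.4, 17.6 and 30.6 TPM in scramble. Every treated library held over 100 TPM, and scramble library 3 was the lowest of the controls. With means of 112 ± 4.58 TPM in oAb, 119 ± 1.84 in fAb and 27.0 ± 6.62 in scramble (SD, n = 4 each), the log2 fold change was 2.26 ± 0.12 in oAb (edgeR adjusted p = 3.29e-07) and 2.30 ± 0.11 in fAb (adjusted p = 2.08e-07). Of the exon bases of Adar, 16.8% also lie in Chrnb2, a nicotinic receptor subunit gene on the other strand. Chrnb2 itself had 2 to 56 counts per library, against 809 to 5865 for Adar.

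Samhd1 (ENSMUSG00000027639, chromosome 2, 157097533 to 157135265, minus strand), the triphosphohydrolase, had 238, 235, 283 and 278 TPM in oAb, 248, 267, 266 and 262 TPM in fAb, and 90.6, 81.8, 59.6 and 85.3 TPM in scramble. In oAb, libraries 1 and 2 were lower than libraries 3 and 4, a division that is also that of the library sets. The means were 258 ± 25.5 TPM in oAb, 261 ± 8.60 in fAb and 79.3 ± 13.7 in scramble (SD, n = 4 each). Log2 fold changes were 1.90 ± 0.11 in oAb (edgeR adjusted p = 7.09e-07) and 1.87 ± 0.09 in fAb (adjusted p = 1.82e-07). Samhd1 gave the most counts of any member, 11129 to 15228 per library in oAb, 13497 to 14803 in fAb and 3093 to 4720 in scramble.

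Trex1 (ENSMUSG00000049734, chromosome 9, 109057933 to 109059734, minus strand), the cytosolic DNA exonuclease, had the largest log2 fold change of the 6 members in both comparisons, except that without scramble library 1 it was 2.29 in fAb, below 2.33 for Adar. It had 344, 345, 301 and 348 TPM in oAb, 293, 248, 328 and 329 TPM in fAb, and 41.97, 53.4, 75.9 and 58.8 TPM in scramble. The controls were far below the treated libraries, and here scramble library 3 was the highest of them and library 1 the lowest, the reverse of their order in Apobec1. Means were 334 ± 22.5 TPM in oAb, 299.6 ± 37.9 in fAb and 57.5 ± 14.1 in scramble (SD, n = 4 each), and the log2 fold change was 2.67 ± 0.25 in oAb (edgeR adjusted p = 1.89e-05) and 2.47 ± 0.27 in fAb (adjusted p = 5.71e-05). Within the library sets it was 2.53 in oAb in the Timm23 set, 3.34 in oAb in the Gm10273 set and 3.15 in fAb in the Gm10273 set, where scramble library 1 is the lone control and is taken to vary like the other group. The Gm10273 values are over 1.5 times the fold of all libraries together.

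All exon bases of Trex1 lie inside exons of Atrip, a gene of the DNA damage checkpoint on the same strand, and 95.8% of the 50-base words of Trex1 also occur there. Counts of Trex1 are therefore uncertain, since the treatment of such reads in counting is not known here. Atrip itself had 342, 355, 355 and 367 counts in oAb, 360, 354, 389 and 378 in fAb, and 345, 290, 258 and 272 in scramble. Those counts are below the 1729 to 2392 of Trex1 in treated libraries and close to the 274 to 494 of Trex1 in controls. The log2 fold change of Atrip was 0.42 ± 0.09 in oAb (edgeR adjusted p = 0.00419) and 0.36 ± 0.10 in fAb (adjusted p = 0.0139).

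Zc3hav1 (ENSMUSG00000029826, chromosome 6, 38305286 to 38354603, minus strand), the CpG-binding antiviral protein, rose least of the 5. Its level was 142, 133, 144 and 140.3 TPM in oAb, 144, 152, 146 and 144 TPM in fAb, and 71.3, 70.6, 42.5 and 79.3 TPM in scramble. The treated libraries were nearly level, and scramble library 3 was well under the other controls. Means were 139.7 ± 4.61 TPM in oAb, 147 ± 3.58 in fAb and 65.9 ± 16.1 in scramble (SD, n = 4 each). The log2 fold change was 1.29 ± 0.12 in oAb (edgeR adjusted p = 1.57e-05) and 1.31 ± 0.11 in fAb (adjusted p = 1.24e-05), that is 2.45-fold and 2.48-fold higher.

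**Figure D2:**
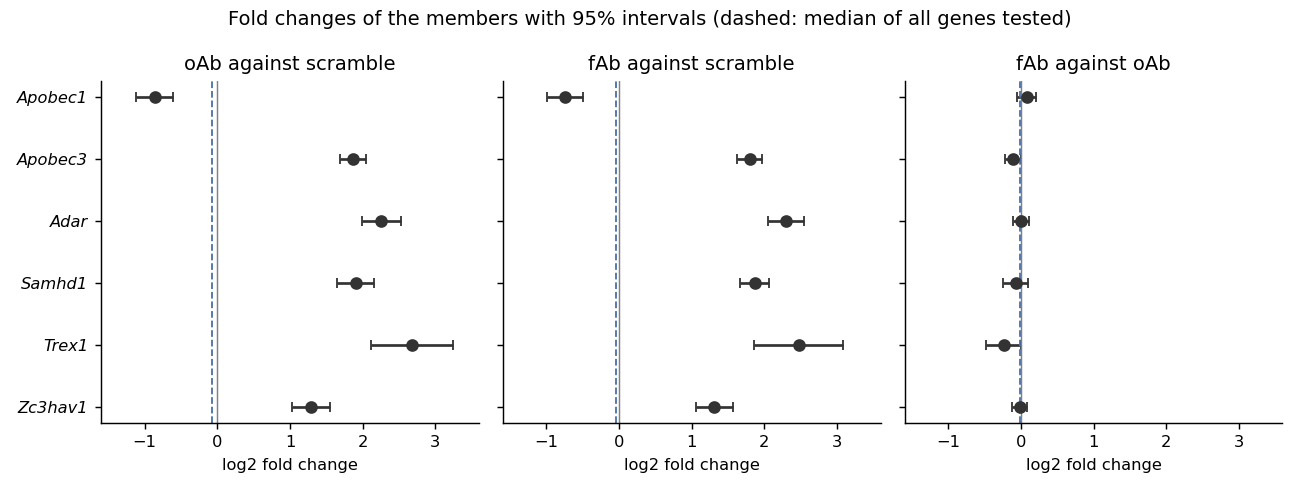
Log2 fold change of each member (horizontal axis) with its 95% interval from the edgeR fit, for oAb against scramble, fAb against scramble and fAb against oAb, with the median of all genes tested as a dashed line. In both comparisons with scramble 5 members lie to the right of 0 and Apobec1 to the left, and in fAb against oAb the values lie between -0.23 and 0.08.

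Between the 2 preparations no member differed past the threshold, and none of the 10878 genes tested was called by edgeR (0%), while 1391 genes (12.8%) had an unadjusted p under 0.05 and DESeq2 called 15. The widest difference was that of Trex1, with a log2 fold change of -0.23 in fAb against oAb (95% interval -0.47 to 0.0039, edgeR adjusted p = 0.393). For Apobec3 it was -0.11 (-0.22 to -0.0034, edgeR adjusted p = 0.382), an interval that ends just short of 0. The intervals of the other members were -0.05 to 0.21 for Apobec1, -0.10 to 0.12 for Adar, -0.24 to 0.10 for Samhd1 and -0.12 to 0.09 for Zc3hav1, with edgeR adjusted p of 0.528, 0.969, 0.700 and 0.911 in that order. These intervals leave out a change of a full log2 unit in either direction, but a p that misses the threshold does not show equal levels. For Samhd1 the log2 fold change was -0.07, but -0.202 ± 0.055 with a library set term (edgeR adjusted p = 0.296). Within the Gm10273 set it was -0.193 ± 0.058 (edgeR adjusted p = 0.442). Every fAb library is in that set, so both fits set fAb against oAb libraries 3 and 4 and are not separate results. In TPM the fAb libraries of Zc3hav1 were all above the oAb libraries, by a narrow margin (144 to 152 TPM in fAb against 133 to 144 TPM in oAb), a separation seen in 8.75% of all genes in that direction and in 0.846% in the other. The scaled counts gave it a log2 fold change of -0.01, so the direction depended on the scale.

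Summed over the 6 members, RNA amounted to 969 ± 28.1 TPM in oAb, 959 ± 27.7 in fAb and 412 ± 61.1 in scramble (SD, n = 4 each). Its make-up differed between treated cells and controls. Apobec1 gave 8.29% of the sum in oAb, 9.42% in fAb and 40.4% in scramble. Trex1 gave 34.5% in oAb, 31.2% in fAb and 14.6% in scramble, and Zc3hav1 held a like share throughout, 14.4%, 15.3% and 15.9%. These shares depend on the gene lengths behind the deposited TPM, as does the order given next. That of Trex1 also rests on counts made uncertain by Atrip.

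By level per length in TPM, the members in oAb ran from Trex1 down through Samhd1, Zc3hav1, Adar and Apobec1 to Apobec3, with no overlap between the libraries of neighbours. The order of the means was the same in fAb, where Trex1 and Samhd1 overlapped and Trex1 was higher in 3 of 4 libraries. In scramble the order was Apobec1, Samhd1, Zc3hav1, Trex1, Adar and Apobec3, with Samhd1 and Zc3hav1 overlapping, and Zc3hav1 and Trex1 overlapping. The order depends on the length used. The authors' RPKM imply gene lengths 1.06 times the merged exons of GENCODE M21 in all 6 members, and for Apobec3 and Samhd1 the merged exons are 3.42 and 2.33 times as long as the longest coding transcript, beside 1.06 to 1.37 times in the other 4. Rescaled to the longest coding transcript, Samhd1 led in treated cells with 602 ± 59.4 in oAb and 608 ± 20.1 in fAb, and Trex1 came next with 354 ± 23.9 and 317 ± 40.1. Apobec3 then stood at 151 ± 5.98 in oAb and 148 ± 4.43 in fAb, above Apobec1 at 95.8 ± 3.52 and 108 ± 9.87. In scramble Apobec1 at 200.4 ± 50.5 and Samhd1 at 185 ± 31.8 led, and Adar at 37.1 ± 9.10 was last (TPM scale, SD, n = 4 each).

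**Figure D3:**
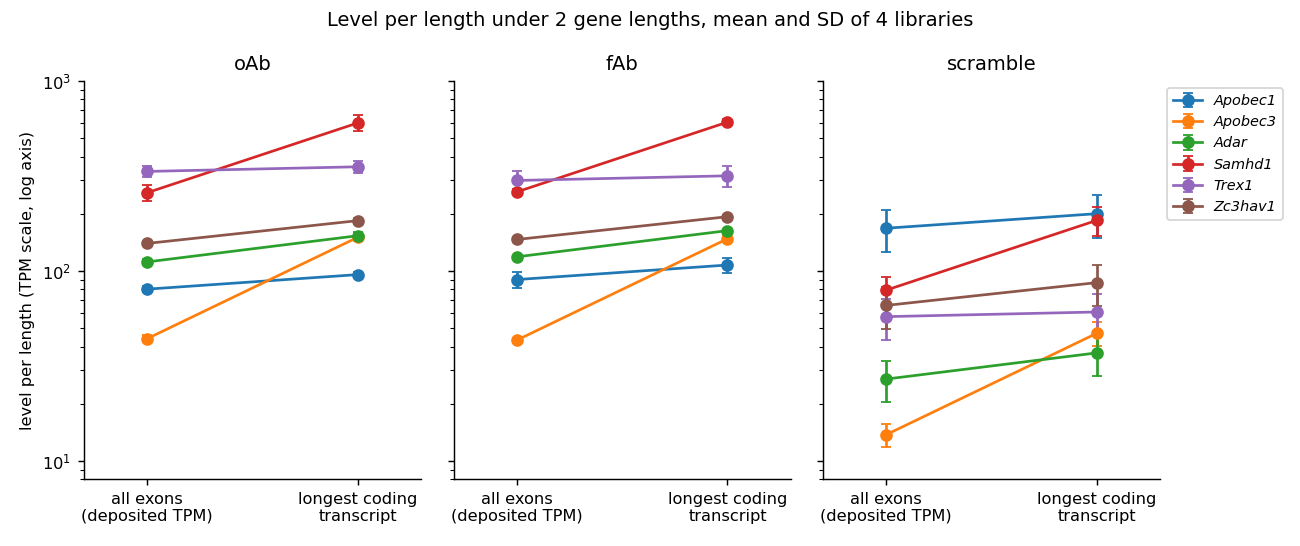
Mean level per length of each member (vertical log axis, TPM scale) with the SD of 4 libraries, for the merged exon length behind the deposited TPM and for the longest coding transcript, in oAb, fAb and scramble. Samhd1 and Apobec3 shift upward between the lengths, and Apobec1 is the highest mean in scramble under both.

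Relative to the mean, the controls spread more than the treated libraries in all 6 members. The SD was 14.2% to 25.2% of the mean in scramble over the 6 members, beside 3.30% to 9.86% in oAb and 1.55% to 12.6% in fAb. Scramble library 3, with its higher ribosomal protein share, was the lowest control in 5 members, from -20.4% in Apobec3 to -35.6% in Zc3hav1 relative to the control mean. In Trex1 it was the highest, by 32.0%, while scramble library 1 was the lowest at -27.0%. Without scramble library 3 every member passed the edgeR test in both comparisons. The log2 fold change of Trex1 was then 2.98 ± 0.13 in oAb and 2.78 ± 0.18 in fAb, that of Adar 2.17 ± 0.08 and 2.22 ± 0.07, and that of Zc3hav1 1.20 ± 0.08 and 1.23 ± 0.07. Within the Timm23 set, the log2 fold change of Apobec1 was -0.77 ± 0.13 in oAb. Within the Gm10273 set it was -1.09 in oAb and -1.001 in fAb, but there the 1 control is scramble library 1, the highest of the controls for Apobec1, so the spread of the controls does not enter these values. The summed microglial markers and the mitochondrial share differ between treated and control libraries as given above, and their part in the members' changes was not tested.

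**Figure D4:**
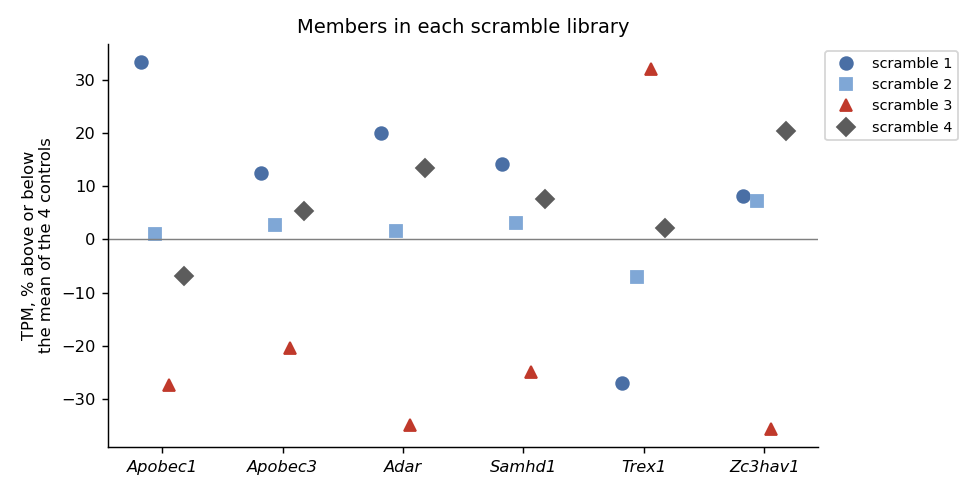
TPM of each member in the 4 scramble libraries as percent above or below their mean (vertical axis). Scramble 3 (triangles) is the lowest in 5 members and the highest in Trex1.

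Other genes of the same pathways were taken from 7 lists and read from the same fits. Of the other editing enzymes and their cofactors, 8 of 14 passed the filter on low counts, 0 rose and 2 fell in both comparisons, with a median log2 fold change of -0.09 in oAb and -0.08 in fAb. Cdadc1, a cytidine deaminase domain gene and 1 of those that fell, had log2 fold changes of -0.78 ± 0.13 in oAb and -0.82 ± 0.13 in fAb (edgeR adjusted p = 0.000803 and 0.000483).

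Of 17 tested genes of the deoxynucleotide pool and of the kinases that act on SAMHD1 in humans, 3 rose and 11 fell in oAb and 5 rose and 10 fell in fAb, with medians of -0.54 and -0.51. With scaling by library totals or the upper quartile, the fAb counts were 2 rising and 11 falling. Tk1, a thymidine kinase of S phase, had log2 fold changes of -2.04 ± 0.15 in oAb and -1.95 ± 0.14 in fAb (edgeR adjusted p = 3.52e-06 and 4.49e-06), and Ccna2, which encodes cyclin A2, -1.20 ± 0.09 and -1.19 ± 0.08 (adjusted p = 3.08e-06 and 2.25e-06). Against them, Dck, the deoxycytidine kinase of the salvage path, had 1.62 ± 0.14 and 1.72 ± 0.14 (adjusted p = 1.26e-05 and 7.34e-06), and Cdk6 had 1.31 ± 0.17 and 1.47 ± 0.17 (adjusted p = 0.000191 and 8.12e-05). Cdkn1a, the p21 inhibitor of cyclin-dependent kinases, had 0.46 ± 0.10 and 0.32 ± 0.10 (adjusted p = 0.00379 and 0.0205). Rrm2b, a ribonucleotide reductase subunit, had 0.64 ± 0.27 in oAb, which did not pass (adjusted p = 0.0678), and 0.77 ± 0.26 in fAb (adjusted p = 0.0308). Of the exon bases of Ccna2, 12.5% also lie in Exosc9 on the other strand, so its count is uncertain.

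Other nucleases mostly did not follow Trex1. Of 13 tested, 2 rose and 7 fell in oAb and 3 rose and 8 fell in fAb, with medians of -0.46 and -0.56, and upper quartile scaling gave 1 rising and 9 falling in fAb. Isg20, an interferon-induced exonuclease, reached 142 ± 12.5 TPM in oAb and 119.7 ± 10.7 in fAb, against 0.788 ± 0.300 in scramble, with log2 fold changes of 7.66 ± 0.18 and 7.36 ± 0.19 (edgeR adjusted p = 2.38e-09 and 4.57e-09). Dnase2a, the lysosomal DNase, had -0.88 ± 0.12 and -0.95 ± 0.12 (adjusted p = 0.000176 and 0.000141). Pld3, a lysosomal exonuclease, had 0.77 ± 0.18 and 0.67 ± 0.20 (adjusted p = 0.00568 and 0.0198). Rnaseh2c, a subunit of ribonuclease H2, ranged from 12.4 to 46.0 TPM in oAb, 8.84 to 15.9 in fAb and 25.7 to 109 in scramble, and passed in fAb (edgeR adjusted p = 0.00238) but not in oAb (adjusted p = 0.101). Between fAb and oAb its log2 fold change was -1.22 ± 0.46 (adjusted p = 0.375), which did not pass. Of the exon bases of Rnaseh2c, 24.8% also lie in Kat5 on the other strand, and of those of Dnase2a 29.99% in Mast1 on the other strand, so both counts are uncertain. Rnaset2b had log2 fold changes of 0.41 ± 0.16 in oAb and 0.41 ± 0.15 in fAb (adjusted p = 0.0609 and 0.0448), but shares 57.2% of its 50-base words with other genes, chiefly Rnaset2a.

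Of the 13 cofactors of ZAP and RNA decay genes, 4 rose and 3 fell in both comparisons, with medians of 0.07 and 0.05. Library totals gave 2 rising with 6 falling in oAb and 2 rising with 4 falling in fAb, and the upper quartile gave 2 with 6 in oAb. Trim25, the ubiquitin ligase that ZAP needs, had log2 fold changes of 1.11 ± 0.11 in oAb and 1.16 ± 0.10 in fAb (edgeR adjusted p = 2.75e-05 and 1.08e-05), close in size to those of Zc3hav1, a likeness that was not tested. N4bp1, an RNA endonuclease, had 1.01 ± 0.12 and 1.15 ± 0.11 (adjusted p = 8.15e-05 and 2.07e-05), whereas its relative Khnyn, the ZAP cofactor that cleaves RNA, had -0.66 ± 0.18 and -0.50 ± 0.18 (adjusted p = 0.0130 and 0.0396). Of the exon bases of Khnyn, 18.4% also lie in Sdr39u1 on the other strand, so its count is uncertain. The decapping enzyme gene Dcp2 had 0.69 ± 0.23 and 0.90 ± 0.23 (adjusted p = 0.0323 and 0.00915), the exosome subunit gene Exosc5 -0.75 ± 0.26 and -1.07 ± 0.25 (adjusted p = 0.0372 and 0.00502), and the deadenylase gene Parn -0.60 ± 0.09 and -0.53 ± 0.08 (adjusted p = 0.000363 and 0.000466).

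In the main fits, rises outnumbered falls by over 3 to 1 among the sensors, the interferon signalling genes and the other restriction factors. Of all genes called, 48.2% were higher in oAb and 48.9% in fAb. For the restriction factors the ratio was lower with some other scalings, as given below, and the other lists named here moved too. With library totals, 10 sensors rose and 2 fell in both comparisons. Interferon signalling genes then had 8 rising with 0 falling in oAb and 9 rising with 1 falling in fAb. The upper quartile gave them 10 rising with 1 falling in fAb. Of 15 nucleic acid sensors, 11 rose and 1 fell in both comparisons, with medians of 3.05 and 3.04. Zbp1, the sensor of Z-form nucleic acid with a Z-binding domain of the kind also found in Adar, had 843 counts over the oAb libraries, 841 over the fAb libraries and 0 over the controls. With 3 counts over all controls as the floor, it was 255-fold higher in oAb and 235-fold higher in fAb. The lower 95% limits were 207-fold and 191-fold, which cover counting error only. Ddx58, which encodes the RNA sensor RIG-I, had 4.80 ± 0.14 and 4.85 ± 0.11 (edgeR adjusted p = 7.84e-09 and 2.38e-09), Dhx58 5.38 ± 0.13 and 5.32 ± 0.13, and Oas2 5.18 ± 0.26 and 5.28 ± 0.25. The sensor that fell was Tmem173, which encodes STING, the adaptor of the DNA sensing path that Trex1 restrains, at -0.59 ± 0.12 in both (adjusted p = 0.00279 and 0.00211).

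Among 12 tested interferon signalling genes, 10 rose and 0 fell in both comparisons, with medians of 2.13 and 2.22, and those that rose included Isg15 (log2 fold change 8.74 ± 0.17 and 8.67 ± 0.17), Usp18 (8.28 ± 0.19 and 8.25 ± 0.16) and Irf7 (7.80 ± 0.13 and 7.64 ± 0.15). Of 20 other restriction factors, 11 rose and 3 fell in oAb and 13 rose and 3 fell in fAb, with medians of 0.62 and 0.75. The upper quartile gave 10 rising with 4 falling in oAb. Library totals gave 9 with 4 in oAb and 9 with 3 in fAb. Rsad2, which encodes viperin, rose by 9.54 ± 0.26 and 9.58 ± 0.24 on the log2 scale (edgeR adjusted p = 5.09e-09 and 4.00e-09), Mx2 by 7.30 ± 0.29 and 7.47 ± 0.29, and Trim30a by 5.95 ± 0.21 and 5.98 ± 0.18. Mx1, which had only 4 counts over the controls, had 2655 over the oAb libraries and 2908 over the fAb libraries. Serinc3, a membrane protein that lowers retroviral infectivity, had -1.45 ± 0.12 and -1.45 ± 0.10 (adjusted p = 6.01e-06 and 2.95e-06) and Trim28, a silencer of retroelements, -0.52 ± 0.11 and -0.52 ± 0.11 (adjusted p = 0.00327 and 0.00378). No gene of the 7 lists was called by edgeR in fAb against oAb.

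**Figure D5:**
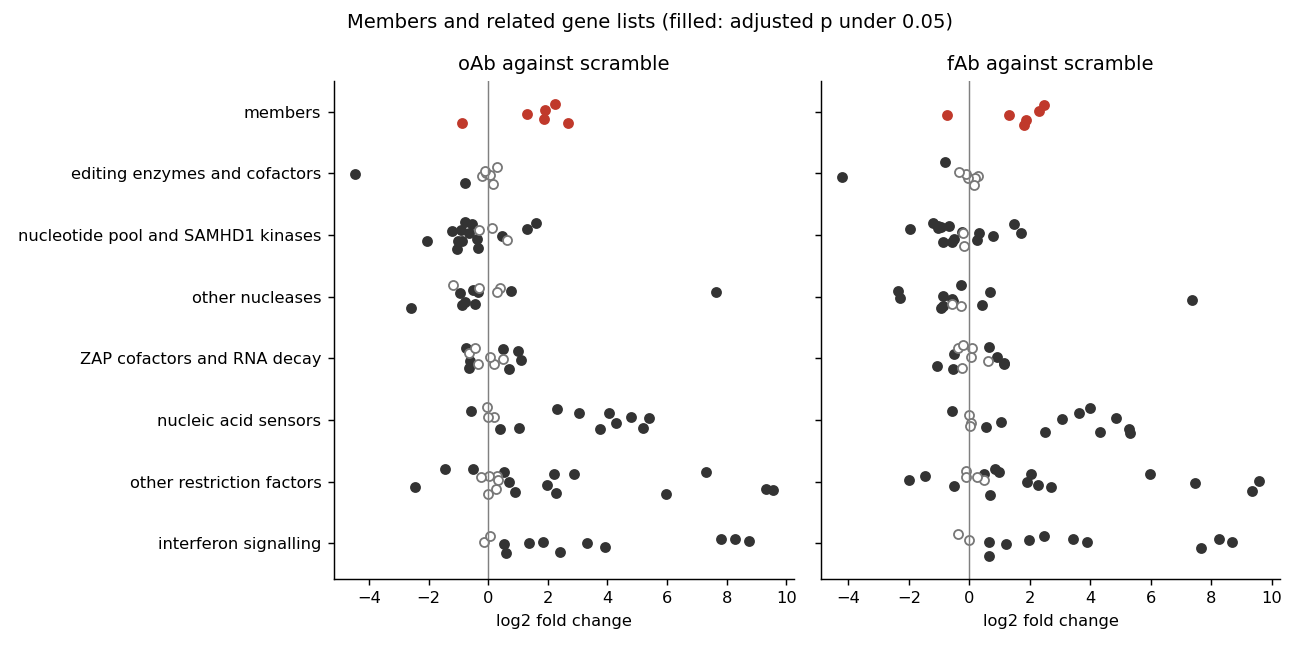
Log2 fold change (horizontal axis) of the 6 members (red) and of the tested genes of 7 related lists (black), 1 point per gene, in oAb against scramble and fAb against scramble, filled where the adjusted p was under 0.05. Sensors, other restriction factors and interferon genes extend to the right, most of the other lists lie around or left of 0, and Zbp1, with no count in the controls, is left out.

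The genes whose log2 CPM (counts scaled to library size) was most like that of each member over the 12 libraries were sought among 9784 genes. Since the 12 points fall into 3 groups, these Pearson correlations mostly state a like pattern over the groups and are descriptions only. They do not depend on the size of the fold. Irf7, named below for Apobec3, had log2 fold changes of 7.80 in oAb and 7.64 in fAb, beside 1.87 and 1.79 for Apobec3. For Apobec1 they were Ercc5 (0.991), Kpna2 (0.989) and Spag5 (0.986), for Apobec3 Irf7 (0.999), Isg20 (0.999) and Lipg (0.999), and for Adar Rgl1 (0.9995), St3gal1 (0.999) and Znfx1 (0.999). For Samhd1 they were Syk, Bcat1 and Lyn (0.999 each), for Trex1 Cd14, Tubb6 and Slc2a6 (0.997 to 0.998), and for Zc3hav1 Ankrd50, Smurf1 and Slc39a6 (0.998 each). With each group's mean taken away, the spread between libraries of a group remained. By it Ankrd50 was again the gene most like Zc3hav1 (0.981). The others were led by Tmem165 for Apobec1 (0.950), Natd1 for Apobec3 (0.957), Nbas for Adar (0.986), Lcp1 for Samhd1 (0.989) and Nt5dc2 for Trex1 (0.996). Among the members themselves, Adar and Zc3hav1 varied together within groups (0.859), while Trex1 varied against Apobec1 (-0.71) and Adar (-0.58). These values share the libraries described above, scramble library 3 among them. By likeness within groups over the 9784 genes, Zc3hav1 ranked 767 for Adar, while Trex1 ranked 7824 for Adar and 9208 for Apobec1. Many genes outside the members thus had values as large.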

How the data were processed

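The 12 RNA samples came from spin columns and were made into libraries by a stranded mRNA kit, per the labels' protocols. The genome build is mm10 (per the submitters' processing notes), and the reads had been trimmed, per the file headers. The aligner, the counter and any use of strand (not given in the sources used here) are unknown. Whole-number counts per gene, RPKM and TPM were deposited in 2 tables that hold the same controls. The authors also deposited columns named CPM, a scaled signal that was left out. In the authors' deposited tables there are also p-values, log2 fold changes and signed fold changes (a score), whose test is not stated. For Trex1 the authors' deposited table gives fold changes of 6.46 in oAb and 5.53 in fAb, and for Apobec1 -1.80 and -1.68. No other column of per-sample values was present.

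Counts were tested in edgeR 4.0.16 (R 4.3.3) on the 8 libraries of each comparison, grouped by their labels. Genes passing filterByExpr (minimum count 10) were scaled by TMM and tested with the robust quasi-likelihood F test, two-sided, with Benjamini-Hochberg adjustment over all 11033 (oAb against scramble), 11074 (fAb against scramble) or 10878 (fAb against oAb) genes tested and a threshold of 0.05. The SE is the log2 fold change over the square root of F. The fit was tested on simulated data. Levels are the deposited TPM. Overlaps, shared 50-base words and lengths were computed with pandas 2.3.3 in Python 3.11.15 from GENCODE M21, and promoters came from RefSeq. Correlations used log2 CPM with a prior count of 2 over genes with a mean of at least 2 CPM. The search for genes like a member also left out names made of Gm and digits or ending in Rik.

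The members, the 7 lists and the tests were chosen with earlier results of these data known. Of each list, the genes named are up to 4 called genes with the largest mean change and up to 2 that moved against the majority of its calls, and some genes that this rule names are not reported here. Every pair of libraries within a group differed beyond counting noise, with a chi-square of 2.97 to 143 for each degree of freedom. In fAb against scramble, libraries of the same number deviated together from their group means (correlations 0.127 to 0.261). Whether the numbers mark a pairing is not known. The tests reported here were unpaired, and a replicate block was run as an alternative. Alternatives were other scalings, filters, DESeq2 1.42.0, limma 3.58.1 on log2(TPM + 1) and log2(TPM + 0.1), a replicate block, the library sets, leaving out each library, a fit of all 12 libraries and a threshold of 0.01. Levels by the longest coding transcript were added after the data were seen.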

Additional observations from a re-analysis of the deposited data

Results flagged for a closer look

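Groups of 4 libraries were examined for a library whose distance from the nearest other was large for the range of the group (Dixon's test), 33 groups in all, and 3 met the rule, which chance meets in about 1 of 20 groups. Apobec3 was lowest in fAb library 4, at 41.3 TPM, with the other fAb libraries between 43.7 and 44.1 TPM. Trex1 was lowest in oAb library 3, at 301 TPM, with the other oAb libraries between 344 and 348 TPM. The share of counts at ribosomal protein genes was highest in scramble library 3, at 10.6%, with the other controls between 6.39% and 6.75%. Both treated libraries remain far above every control for the gene in question.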

How the results depend on the processing

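Each member kept its direction and its call against scramble under the 22 alternatives for oAb and the 21 for fAb, of which the fits within the Gm10273 set have 1 control and so no replication of scramble. Across them the log2 fold changes in oAb ranged from -1.13 to -0.75 for Apobec1, 1.61 to 1.91 for Apobec3, 1.98 to 2.32 for Adar, 1.63 to 2.02 for Samhd1, 2.43 to 3.34 for Trex1 and 1.02 to 1.39 for Zc3hav1. In fAb against oAb no alternative called a member. Small differences there changed sign: Adar to -0.0481 with a library set term, to -0.0388 within the Gm10273 set and, leaving out each library in turn, to between -0.00715 and 0.0368 (-0.00411 without oAb replicate 1, -0.00265 without fAb replicate 3), Samhd1 to 0.0175 and 0.0176 by limma on TPM, and Zc3hav1 to 0.00515 with the upper quartile, 0.0263 with library totals, 0.0682 and 0.0686 by limma and, leaving out each library, to between -0.0273 and 0.0150 (0.00670 without oAb replicate 3). The number of genes called was 5761 in oAb against scramble but 3792 within the Timm23 set. In fAb against scramble it was 6235, but 3844 with a library set term. Every fAb library is in the Gm10273 set, and scramble library 1 is the only control there. With that term the fAb change is therefore set against that 1 control. The cause of these differences in number was not tested. In fAb against oAb the number of genes called was 0, but 15 by DESeq2. Leaving out each library gave 4962 to 7174 genes in oAb, 5517 to 7598 in fAb and 0 between the preparations. The replicate block gave 5081, 6292 and 0 genes and changed no member's call. Same-numbered libraries did not all deviate together in oAb and scramble (correlations -0.29 to 0.08) or in fAb and oAb (-0.30 to 0.38). Calls were 2777 higher and 2984 lower in oAb, against 2127 and 4015 with the upper quartile, 1780 and 4700 with library totals and 1875 and 3796 by limma. In fAb they were 3051 and 3184, against 2273 and 4361, 1943 and 4824, and 2154 and 3775. The median of all genes was -0.24 with the upper quartile and -0.34 with library totals in oAb, and -0.22 and -0.30 in fAb. At 13638721 counts or more per library every member had at least 274 counts, while some genes of the lists did not pass the filter on low counts. The effect of depth was not tested.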
